A study of Mus musculus with 107 samples.

Results

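The myeloid genes described here are 47 genes of microglia, macrophages and monocytes, chosen by name and mapped to mouse Entrez identifiers, of 27179 genes counted in every library. All 47 were found. RNA bound to HA-tagged ribosomes (RiboTag, an epitope tag on Rpl22 that lets ribosomes be pulled down with an antibody) was sequenced from 73 libraries of ESC and neural progenitor cell (NPC) cultures and 34 libraries of mouse spinal cord. The NPC cultures were of several passages and derivations, and some were passed through a pipette in medium or hydrogel. Others were differentiated, spontaneously or with CNTF, IGF-1, fetal bovine serum (FBS, 1%, 5%, 10% or 20%) or CNTF and 5% FBS. The grafted NPC all came from 1 female ESC line in which Sox2-cre had made the tag constitutive. They were injected in a hydrogel carrier through glass micropipettes into young adult C57BL/6 mice (8 weeks to 4 months old). The study used mice of both sexes, and the sex of each recipient was not stated. The 4 graft groups (n = 5 each) were NPC recovered at 14 d after grafting from uninjured spinal cord (uninjured grafts), from a single forceps crush at thoracic level with grafting 2 days after injury (SCI grafts) and from a double crush, which leaves larger non-neural lesion cores (dSCI grafts), and NPC recovered at 5 d from a single crush (5 d SCI grafts). Days are counted here from grafting. The labels name no starting point, and the paper counts the 14 days from grafting in some places and from injury in another. The host groups were spinal cord astrocytes of RiboTag mice whose Cre is driven by the Gfap promoter (line 73.12), healthy (n = 9) or at 14 days after a crush SCI (n = 5). No injection is described for these hosts. In both designs the tag belongs to grafted cells or astrocytes, and the myeloid cells of the host were not meant to carry it. The paper reports little RNA and no tag transcripts recovered from injured cord without a graft. It treats Cd22, Spi1, Ms4a7 and Clec4d as reactivity genes of the grafted cells, and Cd22 and Spi1 also of host astrocytes. Which cells the RNA of the 47 genes came from was not tested here. In bulk RNA of this kind fewer cells of a type and less RNA per cell cannot be told apart.

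Microglia are the resident macrophages of the CNS, seeded in the embryo and kept alive through the receptor Csf1r and the transcription factor Spi1 (PU.1). In healthy tissue they survey through receptors such as P2ry12 and Cx3cr1. After a crush, monocytes that express Ccr2 enter from the blood, become macrophages that clear debris and fill the lesion core, and switch on scavenger, lysosome and arginine-metabolising genes, while nearby microglia lower their surveillance genes. P2ry12, Tmem119, Cx3cr1 and Siglech were read as the 4 microglia genes and Arg1, Ccr2, Ms4a7, Clec4d and Gpnmb as the 5 genes of recruited macrophages. The other 38 were grouped by function.

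Totals of gene counts were 40506790 to 90830404 per library in the 14 d grafts, 12286240 to 15564635 in the 5 d SCI grafts and 69708549 to 117082323 in hosts, and levels are given in CPM, counts scaled to a common library total. The count headers of the 5 d SCI grafts name 1 read data set and those of the other tissue libraries 2. These were read here as single and paired reads. The labels give no read type, and the paper describes paired-end sequencing. Single libraries stood apart. Summed over the 47 genes, 5 d SCI graft replicate 4 held 39582 CPM against 3156 to 5136 in the other 4 libraries of its group, and was the highest of its group for 46 of the 47 genes. Host SCI replicate 2 held 4904 CPM against 951 to 1853, and was the highest for 44. dSCI graft replicate 4 (23726 CPM, highest for 41), uninjured graft replicate 5 (2965 CPM, highest for 38) and SCI graft replicate 5 (4767 CPM, highest for 33) led their groups as well. Counts of called members or their medians are given below without some of these libraries as well, and the values of single genes only with all libraries. Markers of the labelled cells were present: the astrocyte genes Gfap, Aqp4, Slc1a3 and Aldh1l1 summed to a median of 7451 to 17262 CPM in the graft groups and 25116 to 27707 CPM in the hosts.

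The cultures, untreated and treated alike, set the background. Over the 73 culture libraries the 47 genes summed to a median of 32.4 CPM (7.83 to 679), and 37 of the 47 had a median below 0.3 CPM. Of the 12 genes followed library by library, Ptprc (CD45, the phosphatase of all leukocytes) reached at most 0.753 CPM in any culture, Csf1r 0.807, Cx3cr1 0.244, Siglech 0.0965, Arg1 0.277, Ms4a7 0.138 and Clec4d 0.154 CPM. Some members were not silent there. Spp1 (osteopontin, a secreted matrix protein that many cells make) reached 466 CPM and Laptm5 132 CPM, both in ESC, and Cd68 43.0, Coro1a 21.3 and Lgals3 16.1 CPM also in ESC. Fcgr2b reached 15.1 and Cd14 24.9 CPM in NPC under CNTF, Gpnmb 15.6 CPM under CNTF and 5% FBS, and Tmem119 10.4 CPM under 20% FBS. These genes therefore have a culture level of their own in this series.

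A member was counted as above the background of a group where its lowest library exceeded the highest of all 73 culture libraries. By this rule 29 of 47 members were above it in uninjured grafts, where 5.74% of all genes were, 35 in SCI grafts (all genes 3.45%), 40 in dSCI grafts (4.33%), 34 in 5 d SCI grafts (3.02%), 10 in healthy hosts (5.31%) and 35 in hosts after SCI (6.38%). The 10 in healthy hosts were Csf1r, Aif1, Cx3cr1, P2ry13, Siglech, Tyrobp, Fcer1g, Fcgr3, Lgals3 and Ctss. Clec4e, Cd14 and Ccr2 were not above the culture background in any of the 6 groups, nor was Coro1a. Of the 4 microglia genes, 3, 2, 4, 2, 2 and 2 were above it in the same order of groups, and of the 5 macrophage genes 1, 3, 3, 4, 0 and 4.

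**Figure D1:**
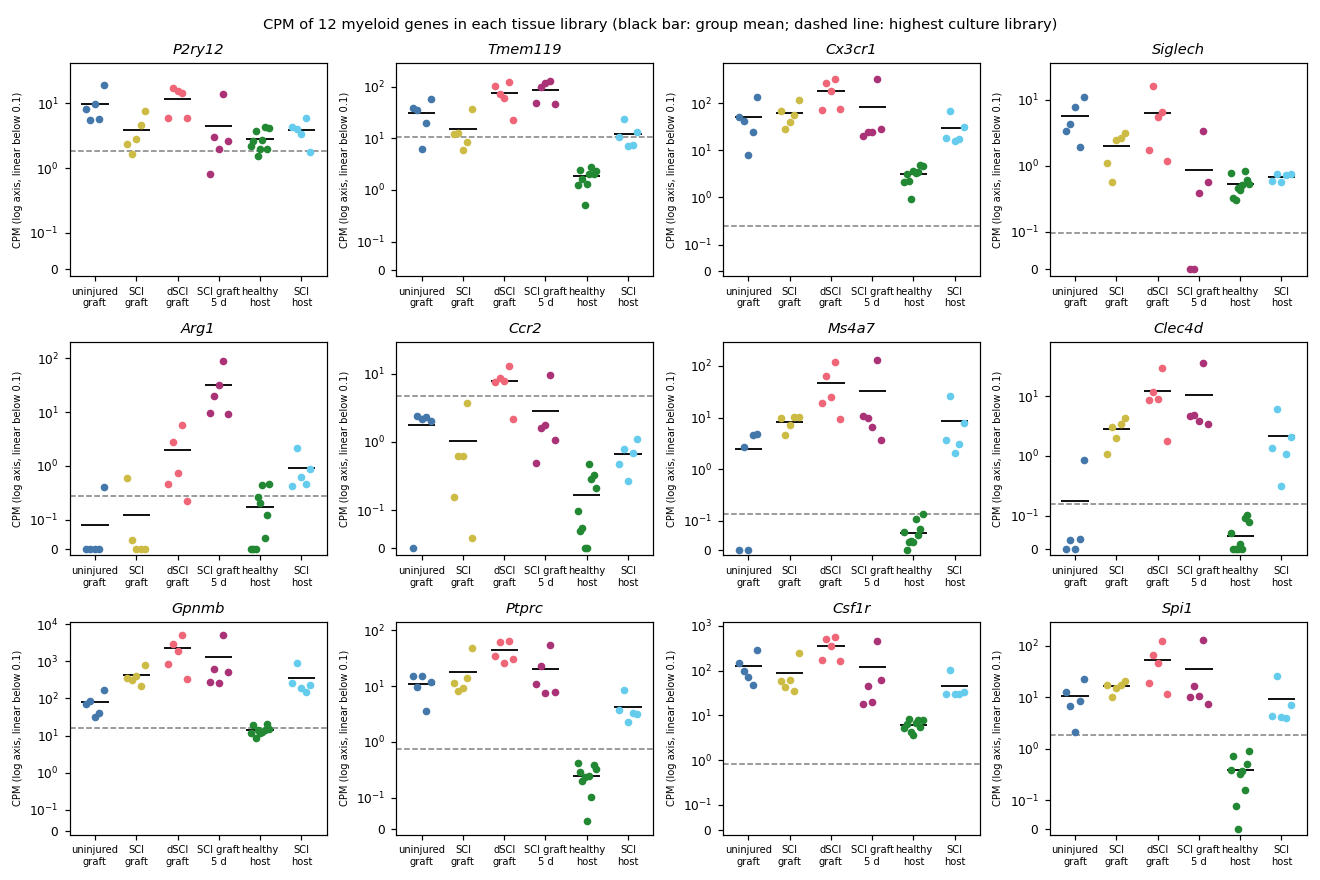
CPM (y axis, logarithmic above 0.1) of 12 myeloid genes in each of the 34 tissue libraries by group (x axis), with the group mean as a black bar and the highest of 73 culture libraries as a dashed line. Ptprc and Csf1r lay above the dashed line in every graft library, Arg1 was at 9.34 CPM or more only in 5 d SCI grafts, and healthy hosts were the lowest group for Ptprc, Csf1r and Spi1.

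The graft preparations held RNA of pan-leukocyte and macrophage-lineage genes even where the cord had not been crushed. These cords had received an injection of cells in hydrogel, and no injection is described for the healthy hosts. The part of the injection in these values was not tested. In uninjured grafts Csf1r stood at 147, 97.5, 72.0, 48.8 and 283 CPM in replicates 1 to 5, against 3.62 to 8.14 CPM in the 9 healthy host libraries. Ptprc stood at 15.0, 9.56, 15.3, 3.56 and 12.0 CPM against 0.0257 to 0.414 CPM. For both genes every uninjured graft library exceeded every healthy host library. Compared with pre-graft NPC (cells passed through a pipette in the hydrogel carrier, n = 5), 36 of the 37 members that could be tested were called higher and none lower at an adjusted p below 0.01 (edgeR quasi-likelihood test), where 28.4% of all genes were called higher and 25.3% lower. The exception was Gpr34, a receptor of microglia, with a log2FC of 4.74 (SE 1.80, adjusted p = 0.036). The median log2FC of the members was 9.47, and 7.98 with the 13 genes that stood at 3 counts or fewer in every pre-graft library held at the bound this gives, against 0.12 over all genes tested. The 10 members that could not be tested for low counts were Cd22, Msr1, Ms4a7, Ms4a6d, Clec4d, Clec4e, Arg1, Havcr2, Ccr2 and Ly6c2. Members that were low in NPC could pass this filter only where the grafts were high, so that passing and being called are not separate facts. The 4 microglia genes were called, P2ry12 with a log2FC of 4.17 (SE 1.14, adjusted p = 0.0065), Tmem119 with 6.22 (SE 1.30, adjusted p = 0.0011) and Cx3cr1 with 10.83 (SE 1.02, adjusted p = 1.7e-06). Siglech was at the floor in pre-graft NPC and at least 134-fold higher in uninjured grafts. Without uninjured graft replicate 5, 34 members were called and the median was 9.07. With NPC P15 D3 as the reference, 40 of 40 members were called higher.

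The uninjured grafts also held RNA of genes used as markers of other cells. Neuron genes (Rbfox3, Snap25 and Syt1) summed to a median of 888 CPM and oligodendrocyte genes to 7815 CPM. Endothelial genes summed to a median of 78.7 CPM and fibroblast and pericyte genes to 2212 CPM. Culture medians were 13.8, 6.61, 2.83 and 11.0 CPM and the highest culture sums 34.3, 669, 172 and 529 CPM, in the same order. Endothelial genes (22.2 to 265 CPM in uninjured grafts) overlapped with cultures, and the other lists did not. The part of these genes in the myeloid result was not tested. The paper reports oligodendrocyte lineage cells among the progeny of these NPC. It saw no neuronal differentiation in grafts to healthy striatum. Which cells these markers came from was not tested. Genes of the Y chromosome, which could mark RNA of male hosts since the grafted line is female, were below 1 CPM in sum in all 20 graft libraries and in all 5 hosts after SCI, and above it in 7 of 9 healthy hosts. These genes cannot mark RNA of female hosts, and the sex of each recipient was not stated. Their absence therefore does not decide whether grafts held host RNA.

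**Figure D2:**
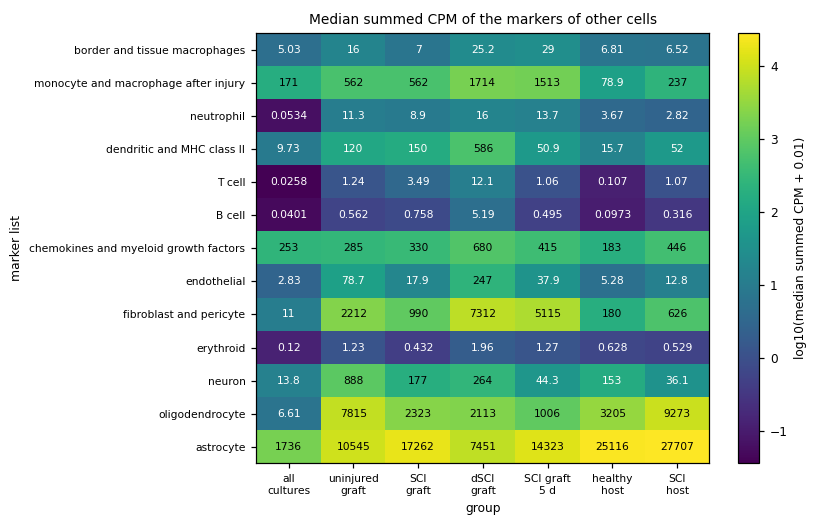
Median summed CPM of the markers of other cells (rows) in all cultures and in the 6 tissue groups (columns), printed in each cell, with colour as log10(sum + 0.01). Lists of myeloid, endothelial and fibroblast genes were higher in dSCI grafts than in SCI grafts, and T cell, B cell and erythroid lists had medians of 12.1 CPM or less in every group.

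dSCI grafts had the highest median CPM of the 6 tissue groups for 41 of the 47 members, a count that was not made over all genes. Arg1, Spp1 and Tmem119 (3) were highest in 5 d SCI grafts, Cd14 and Fcgr2b (2) in SCI grafts and Lgals3 (1) in hosts after SCI. Against uninjured grafts, 16 of 46 members tested were called higher and none lower in dSCI grafts, where 2.55% of all genes were called higher and 1.64% lower. No member was lower at an unadjusted p below 0.05 or by DESeq2 in this comparison, in SCI against uninjured grafts, in hosts or against NPC. All 46 had a positive log2FC, with a median of 2.67, against −0.02 over all genes. Gpnmb, a glycoprotein of lipid-laden and phagocytic macrophages, stood at 849, 2882, 1828, 5203 and 334 CPM in dSCI grafts and at 72.7, 87.2, 32.6, 41.0 and 167 CPM in uninjured grafts. The lowest dSCI library was higher than the highest uninjured one, and the log2FC was 4.90 (SE 0.71, adjusted p = 0.0016). Ptprc stood at 35.0, 62.9, 25.8, 64.6 and 30.6 CPM in dSCI grafts, again without overlap with uninjured grafts (log2FC 2.23, SE 0.39, adjusted p = 0.0039). Spi1, the lineage factor, stood at 19.0, 66.7, 47.1, 121 and 11.5 CPM against 12.5, 6.85, 2.14, 8.49 and 22.8 CPM. These groups overlapped, since dSCI replicate 5 lay below uninjured replicates 1 and 5 and dSCI replicate 1 below uninjured replicate 5, and the log2FC was 2.45 (SE 0.65, adjusted p = 0.028).

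The calls in dSCI against uninjured grafts are given by role, with no test between roles. Of the 5 lysosome, lysozyme and oxidase genes 4 were called: Lyz2 (lysozyme, log2FC 3.81), Cybb (the NADPH oxidase subunit gp91phox, 3.47), Cd68 (a lysosomal glycoprotein, 3.09) and Ncf1 (p47phox, an oxidase subunit, 2.31). The fifth, Ctss (cathepsin S, a lysosomal protease), had a log2FC of 2.82 (SE 0.75, adjusted p = 0.028). Of the 6 activating adaptors and Fc receptors 3 were called, Fcgr1 (3.11), Fcer1g (the Fc receptor gamma chain, 2.84) and Fcgr2b (the inhibitory IgG receptor, 2.53). Trem2 (3.15) and its signalling adaptor Tyrobp (3.02) had adjusted p of 0.012 and 0.011, and Fcgr3 one of 0.023. Of the 8 leukocyte surface and cytoskeleton genes 3 were called, Laptm5 (2.80), Itgb2 (the integrin beta 2 chain, 2.68) and Ptprc, and the smallest log2FC of that group was that of Coro1a (1.52, adjusted p = 0.057). Of the 4 inhibitory receptors Cd84 (3.11) and Cd33 (1.47) were called, and Cd22 had the largest value (3.80, adjusted p = 0.038). Irf8 (2.81) was the only call among the lineage factors, Clec7a (dectin-1, 2.74) the only one among the pattern recognition and scavenger receptors, Gpnmb the only one among the recruited macrophage and monocyte genes, and Lgals3 (galectin-3, 2.16) was called of the 2 secreted and lectin genes. None of the 6 genes grouped with microglia (the 4 above, P2ry13 and Gpr34) was called by edgeR or by DESeq2, and 3 of them had an unadjusted p below 0.05.

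Leaving out 1 library at a time moved this count from 16 to between 5 and 24. It was highest without uninjured graft replicate 5 (24) and fell to 5, 5, 6, 6, 6 and 9 without uninjured replicate 2, dSCI replicate 2, uninjured replicate 1, uninjured replicate 4, dSCI replicate 3 and uninjured replicate 3, and to 10 without dSCI replicate 4. Cd84, Fcgr1, Fcgr2b, Gpnmb and Irf8 (5 of the 16) were called in all 10 of these fits, Ptprc in 8, Fcer1g and Cybb in 5, Itgb2 and Cd68 in 4, Lyz2, Ncf1, Clec7a, Lgals3 and Laptm5 in 3 and Cd33 in 1. The median log2FC of the members stayed between 2.15 and 3.23. Olfml3 of microglia, Apobec1 and Fn1 of the 7 genes for monocytes and macrophages after injury, Ccl2, Cxcl10, Cxcl16 and Csf1 of the 12 chemokines and myeloid growth factors, and Col1a1 of the 5 fibroblast genes were called higher in the same comparison (of those tested in the last 3 lists, 2 of 7, 4 of 11 and 1 of 5). Csf1, the ligand of Csf1r, had a log2FC of 0.82 (SE 0.15, adjusted p = 0.0053).

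The same comparison was made for a single crush. Against uninjured grafts 4 of 44 were called higher in SCI grafts and none lower, where 2.09% of all genes were called higher and 2.55% lower. The median log2FC was 1.13 (all genes −0.05), with 35 positive and 9 negative values, and it was 0.83 without SCI graft replicate 5 and 1.55 without uninjured graft replicate 5. Gpnmb stood at 353, 319.6, 406, 212 and 800 CPM, above every uninjured graft library (log2FC 2.69, SE 0.49, adjusted p = 0.0037). Fcgr2b had the largest called value (log2FC 3.17, SE 0.33, adjusted p = 0.00015), with 95.7 to 231 CPM in SCI grafts and 11.2 to 36.7 CPM in uninjured grafts. Cd14, the lipopolysaccharide co-receptor, stood at 17.1 to 21.6 CPM in uninjured grafts and at 24.8 to 64.5 CPM in SCI grafts (log2FC 1.37, SE 0.22, adjusted p = 0.0019). Lgals3 had a log2FC of 1.13 (SE 0.21, adjusted p = 0.0045), and its groups overlapped. Both Fcgr2b and Cd14 had a culture level of their own, at most 15.1 and 24.9 CPM, both in NPC treated with CNTF. The largest value of all was that of Clec4d, a C-type lectin of macrophages and neutrophils, at 4.21 (SE 1.63, adjusted p = 0.11), with 1.09, 3.10, 2.01, 3.46 and 4.39 CPM in SCI grafts and 0, 0.0256, 0, 0.0290 and 0.840 CPM in uninjured grafts. Without SCI graft replicate 3, or without uninjured graft replicate 2, 2 members were called, and without uninjured graft replicate 5, 6 were. Of the 4 calls Fcgr2b and Cd14 held in all 10 fits that left out 1 library, Gpnmb in 7 and Lgals3 in 4.

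dSCI grafts exceeded SCI grafts in 45 of 47 members, with a median log2FC of 1.72 (all genes 0.04), but only Irf8 (1.67, SE 0.31, adjusted p = 0.0076) and Mrc1 (the mannose receptor CD206, 2.00, SE 0.39, adjusted p = 0.0095) were called higher, where 1.29% of all genes were, and none lower (all genes 0.538%). The 2 negative values were those of Fcgr2b (−0.65, SE 0.29) and Cd14 (−0.44, SE 0.32), neither of which was called by edgeR or DESeq2, with Fcgr2b at an unadjusted p below 0.05. In this pair of groups the call depended on single libraries. Without SCI graft replicate 5 there were 22 called members, without dSCI graft replicate 5 there were 4, and without any 1 of the other 8 libraries there were none by edgeR (with all libraries 40 of the 47 were higher at an unadjusted p below 0.05, and DESeq2 called 16). The median lay between 1.32 (without dSCI graft replicate 4) and 2.03 (without SCI graft replicate 5). All 5 fibroblast and pericyte genes and 3 of 5 endothelial genes were called higher in dSCI than in SCI grafts as well, among them Col1a1 (log2FC 2.66), Pecam1 (3.56) and Cdh5 (2.92), and their part in the myeloid values was not tested. These calls were lost too without SCI graft replicate 1, 2 or 3 or dSCI graft replicate 2, where 0 of all genes were called.

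**Figure D3:**
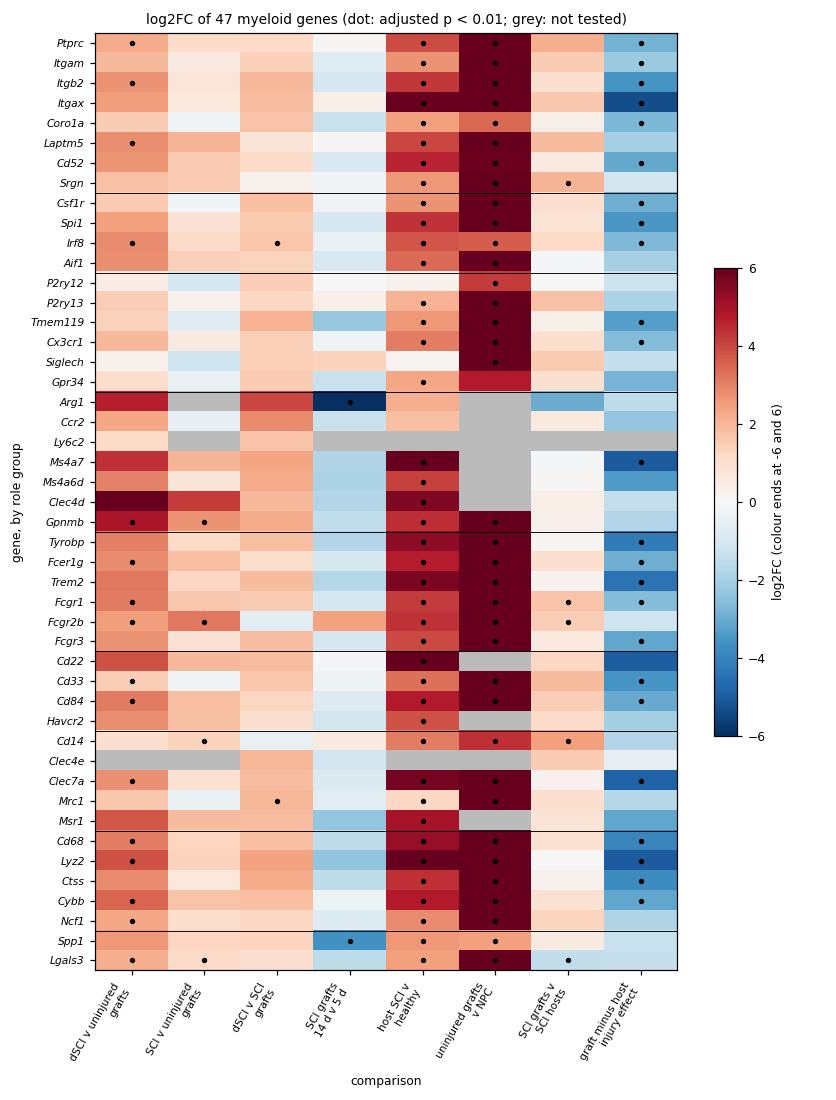
log2FC (colour, ending at −6 and 6) of the 47 genes, ordered by role group with lines between groups (y axis), in the 8 comparisons (x axis). Black dots mark an adjusted p below 0.01 and grey marks genes not tested. The columns of injured against healthy hosts (41 dots) and of uninjured grafts against NPC (36 dots) hold most calls, and the last column, the injury effect in grafts minus that in hosts, is negative in all 46 genes tested.

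The microglia genes are given one by one, since none passed the test in SCI or dSCI against uninjured grafts. P2ry12, the ADP receptor of surveying microglia, stood at 8.10, 5.46, 9.70, 5.82 and 19.2 CPM in uninjured grafts, at 2.33, 1.68, 2.80, 4.68 and 7.68 CPM in SCI grafts and at 5.92, 17.1, 15.7, 14.7 and 5.93 CPM in dSCI grafts. SCI grafts were low and overlapped with uninjured grafts only in replicate 5, while the dSCI and uninjured libraries were mixed. The log2FC was −0.99 (SE 0.56, adjusted p = 0.29) for SCI and 0.47 (SE 0.45, adjusted p = 0.61) for dSCI against uninjured grafts. Siglech, a sialic acid receptor of microglia, gave −1.20 (SE 0.72, adjusted p = 0.31) and 0.24 (SE 0.71, adjusted p = 0.9), the smallest value of all members in both comparisons. Its levels were 3.36, 4.34, 7.83, 1.93 and 11.1 CPM in uninjured grafts, 1.09, 0.564, 2.44, 2.67 and 3.11 CPM in SCI grafts and 1.74, 16.3, 5.41, 6.59 and 1.17 CPM in dSCI grafts. Cx3cr1, the fractalkine receptor that monocytes also carry, stood at 51.3, 40.9, 7.77, 24.5 and 134 CPM in uninjured grafts, 67.3, 28.9, 39.7, 57.3 and 115 CPM in SCI grafts and 70.2, 274, 179.8, 323 and 77.1 CPM in dSCI grafts. Its log2FC against uninjured grafts was 0.55 (SE 0.60, adjusted p = 0.62) in SCI and 1.96 (SE 0.64, adjusted p = 0.066) in dSCI grafts. In dSCI against uninjured grafts Tmem119 had a log2FC of 1.38, Gpr34 had one of 1.05, and P2ry13 lay between Tmem119 and Cx3cr1 (adjusted p = 0.081). Siglech and P2ry12 thus had the smallest values of these 6 genes. Of further genes used as microglia markers, the complement genes C1qa, C1qb and C1qc gave 2.86, 2.66 and 2.90, Fcrls 2.72 and Olfml3 1.39, of which only Olfml3 was called, and Sall1, which cultures also held at a median of 112 CPM, gave −0.04. C1qa had a median of 105 CPM in uninjured and 688 CPM in dSCI grafts. These values lie near the median of all members (2.67) for the complement genes and Fcrls, and whether microglia and macrophage genes moved differently was not tested.

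Among the macrophage genes other than Gpnmb, Ms4a7 (a membrane protein of macrophages that are not microglia) stood at 0, 2.69, 0, 4.66 and 4.82 CPM in uninjured grafts, 9.93, 4.59, 7.12, 10.2 and 10.0 CPM in SCI grafts and 19.0, 64.8, 24.8, 117 and 9.17 CPM in dSCI grafts. Every dSCI library was above every uninjured one, with a log2FC of 4.39 (SE 1.24, adjusted p = 0.037). Ccr2, the receptor that draws monocytes to Ccl2, stood at 0, 2.38, 2.16, 2.29 and 2.01 CPM, 0.155, 0.627, 0.626, 3.71 and 0.0247 CPM and 7.51, 8.79, 7.92, 13.2 and 2.21 CPM in the same order. It was highest in dSCI grafts, in 4 of 5 libraries above all uninjured and SCI grafts, and was not called (log2FC 2.33, SE 0.99, adjusted p = 0.17). Clec4d reached 8.66, 11.9, 8.93, 30.3 and 1.76 CPM in dSCI grafts, with the largest log2FC of all members, 6.14 (SE 1.48, adjusted p = 0.018). The monocyte gene Ly6c2 had a median of 0.483 CPM in dSCI grafts and of at most 0.0895 CPM in the other groups, and reads of it cannot be told from those of its near copies in these counts.

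Set side by side within a library, the 5 macrophage genes summed to 0.716 to 1.11 times the 4 microglia genes in uninjured grafts, 3.14 to 8.17 times in SCI grafts, 3.25 to 11.5 times in dSCI grafts and 2.14 to 11.3 times in 5 d SCI grafts. The ratio was 1.07 to 4.17 in healthy hosts and 4.77 to 9.61 in hosts after SCI. No uninjured graft library reached the lowest library of an injured group, while healthy hosts overlapped with the SCI, dSCI and 5 d SCI grafts. Gpnmb made up most of the macrophage sum, however, and Tmem119 part of the microglia sum. Without these 2 genes, a choice made after the sums were seen, the ratio was 0 to 0.216 in uninjured, 0.115 to 0.269 in SCI, 0.159 to 0.484 in dSCI and 0.557 to 1.67 in 5 d SCI grafts, so that uninjured grafts overlapped with SCI and dSCI grafts and the 5 d SCI grafts stood above all other graft libraries. In hosts it was 0.00745 to 0.155 before and 0.164 to 0.473 after SCI. P2ry12 taken as a percentage of Csf1r in the same library was 35.2 to 55.3% in healthy hosts. It was 5.50 to 13.5% in uninjured, 3.14 to 13.3% in SCI, 2.62 to 4.30% in dSCI and 3.11 to 10.1% in 5 d SCI grafts and 3.83 to 20.2% in hosts after SCI, and no library of these groups reached the lowest healthy host. P2ry12 reached 1.83 CPM in a culture and was above the culture background only in uninjured and dSCI grafts. The percentages in healthy hosts thus rest on low values of both genes, with Csf1r at 3.62 to 8.14 CPM.

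**Figure D4:**
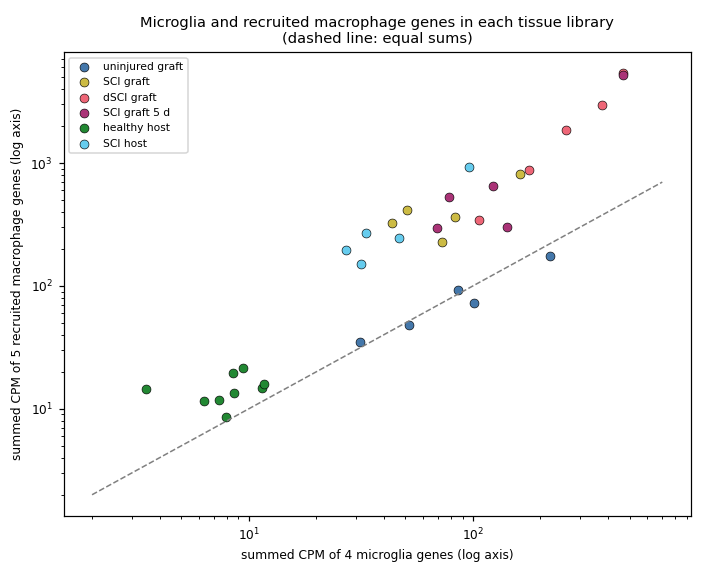
Summed CPM of the 5 recruited macrophage genes (y axis) against that of the 4 microglia genes (x axis), 1 point per tissue library, both axes logarithmic, with a dashed line where the sums are equal. Uninjured grafts lie along the line (ratio 0.716 to 1.11). Every graft and host library after SCI or dSCI lies above it, and so does every healthy host library (1.07 to 4.17).

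Time was read from SCI grafts recovered at 14 d and at 5 d after grafting, a comparison in which time and read type cannot be told apart. Arg1, the arginase of newly recruited and wound-healing macrophages, stood at 9.69, 19.9, 31.9, 89.5 and 9.34 CPM at 5 d and at 0.582, 0.0313, 0, 0 and 0 CPM at 14 d. Its log2FC from 5 d to 14 d was −7.78 (SE 1.22, adjusted p = 0.0017). The lowest library at 5 d was above every other tissue library of the series, the highest of which was a dSCI graft at 5.75 CPM. Spp1 was the other member called lower (log2FC −3.65, SE 0.75, adjusted p = 0.0076), with 921 to 12437 CPM at 5 d and 119 to 387 CPM at 14 d. None was called higher by edgeR or DESeq2 (1 had an unadjusted p below 0.05), where 2.72% of all genes were called higher and 2.58% lower. The median log2FC of the members was −0.97 (all genes 0.00), and it became 0.61 without 5 d SCI graft replicate 4, so the direction of the list as a whole rested on that library. Arg1 was called in 10 of 10 fits that left out 1 library, and Spp1 in 3. Without that library 2 members were called higher at 14 d, and its Arg1 value, 89.5 CPM, was the highest of all tissue and culture libraries.

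Chil3 (Ym1) and Cd36, 2 of the 7 genes of the list for monocytes and macrophages after injury, were called lower at 14 d together with Arg1, Chil3 with 1.22 to 16.3 CPM at 5 d and 0 CPM in every SCI graft library at 14 d. Tmem119 was the microglia gene with the lowest value. It stood at 48.1, 95.8, 115, 129 and 46.6 CPM at 5 d and 12.3, 12.6, 5.87, 8.49 and 37.0 CPM at 14 d, without overlap (log2FC −2.26, SE 0.53, adjusted p = 0.014), while Siglech stood at 0, 0, 0.385, 3.38 and 0.566 CPM and P2ry12 at 0.814, 3.01, 1.99, 14.0 and 2.62 CPM at 5 d. Replicates 1 and 2 of the 5 d SCI grafts thus held 48.1 and 95.8 CPM of Tmem119 beside 0 counts of Siglech. Tmem119 also reached 10.4 CPM in NPC under 20% FBS, and fibroblast and pericyte genes, which summed to 4076 to 12378 CPM at 5 d and 642 to 2563 CPM at 14 d, moved the same way. The part of either in the Tmem119 value was not tested. By DESeq2, 1 of the genes grouped with microglia was called lower at 14 d.

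Fcgr2b went the other way. It was at 8.42 to 131 CPM at 5 d and at 95.7 to 231 CPM at 14 d (log2FC 2.41, SE 0.73, adjusted p = 0.047), the largest positive value in this comparison. In SCI grafts at 14 d its median of 184 CPM was set beside 22.7 CPM for the related receptor Fcgr3, and at 5 d the medians were 11.4 and 18.9 CPM, in libraries where genes of the Fc receptor family may share reads. Fcgr2b was chosen for this description after its values were seen.

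Of the comparisons of injured with uninjured tissue, that of host astrocyte preparations had the most calls. After SCI, 41 of 45 members tested were called higher than in healthy hosts and none lower, where 22.2% of all genes were called higher and 18.8% lower. The median log2FC was 3.95 (all genes 0.02). The largest value was that of Ms4a7 (7.01, SE 0.64, adjusted p = 7.9e-08), with 3.68, 25.6, 2.06, 3.04 and 8.00 CPM after SCI and at most 0.133 CPM in healthy hosts. Ptprc stood at 3.80, 8.48, 2.29, 3.30 and 3.19 CPM after SCI (log2FC 3.90, SE 0.42, adjusted p = 6.1e-07). Spi1 stood at 4.35, 25.8, 4.18, 4.05 and 7.05 CPM, against at most 0.920 CPM in healthy hosts (log2FC 4.36, SE 0.62, adjusted p = 1.3e-05). Gpnmb stood at 263, 893, 193.5, 146 and 235 CPM, against 8.44 to 21.0 CPM (log2FC 4.42, SE 0.35, adjusted p = 1.6e-08). None of these 4 genes overlapped between healthy and injured hosts, and replicate 2 was the highest injured library for each. The 4 members not called were Siglech (0.16, SE 0.32, adjusted p = 0.71), P2ry12 (0.27, SE 0.27, adjusted p = 0.43), Ccr2 (1.80, SE 0.78, adjusted p = 0.062) and Arg1 (2.19, SE 0.88, adjusted p = 0.046). P2ry12 was at 1.55 to 4.30 CPM in healthy hosts and 1.79 to 5.94 CPM after SCI, and Siglech at 0.307 to 0.822 and 0.572 to 0.750 CPM. Both overlapped, while Cx3cr1 (log2FC 3.09) and Tmem119 (2.58) were called higher. Without host SCI replicate 2 the count was 39 and the median 3.34. Y-linked genes summed to more than 1 CPM in 7 of the 9 healthy hosts and in none of the injured hosts, so sex and injury were partly confounded. Against the 2 healthy hosts below this level, 17 of 47 members were called higher and the median log2FC was 3.45.

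SCI grafts recovered at 14 d, counted here from grafting, were set beside hosts taken at 14 days after SCI. Of 46 members, Cd14 (log2FC 2.45, SE 0.43, adjusted p = 0.0012), Srgn (serglycin, a granule proteoglycan, 2.05, SE 0.38, adjusted p = 0.0017), Fcgr1 (1.71, SE 0.42, adjusted p = 0.0098) and Fcgr2b (1.48, SE 0.22, adjusted p = 0.00046) were called higher in grafts, where 6.79% of all genes were, and Lgals3 (−1.46, SE 0.22, adjusted p = 0.00052) lower (all genes 7.84%). Lgals3 was at 204 to 409 CPM in hosts after SCI and at 81.7 to 141 CPM in SCI grafts. The median log2FC was 0.93 (all genes 0.01), 0.48 without SCI graft replicate 5 and 1.54 without host SCI replicate 2. Arg1 had the smallest value (−2.99, SE 1.41, adjusted p = 0.14). Lyz2 (0.03, SE 0.62), P2ry12 (0.03, SE 0.49) and Ms4a7 (−0.05, SE 0.61) had the values nearest to 0. Without host SCI replicate 2, 10 members were called higher. Fcgr1 was called in only 2 of the 10 fits that left out 1 library, the other 4 genes in all 10.

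The injury effects of grafts and hosts were compared directly. Their baselines were unlike, since uninjured grafts had been injected and no injection is described for healthy hosts. In a fit of the 4 groups, the injury effect of grafts minus that of hosts was negative for all 46 members tested, with a median of −2.73 (all genes −0.13), and 24 were called lower and none higher (none by DESeq2 or at an unadjusted p below 0.05 either), where 10.7% of all genes were called lower and 6.11% higher. Itgax had the smallest value (−5.32), followed by Lyz2 (−4.99) and Ms4a7 (−4.98). Clec4e had the largest, −0.49, and was not called. For Csf1r the injury effect was −0.18 (SE 0.59) in grafts and 2.69 (SE 0.28) in hosts, and the difference was −2.91 (SE 0.68, adjusted p = 0.002). Its group means were 129.8 ± 93.3 CPM in uninjured and 89.0 ± 87.5 CPM in SCI grafts against 6.24 ± 1.71 CPM in healthy and 45.6 ± 33.2 CPM in injured hosts (SD, n = 5, 5, 9 and 5). The uninjured grafts and the injured hosts overlapped in this gene. The count was 13 without host SCI replicate 2, 15 without uninjured graft replicate 5, 15 without SCI graft replicate 2 and 16 without SCI graft replicate 1 or 3, and it was 2 with only the 2 healthy hosts below 1 CPM of Y-linked genes, where the median was −2.29. Without host SCI replicate 2 the median was −2.24, without uninjured graft replicate 5 −2.20 and without SCI graft replicate 5 −3.15.

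Levels of different genes were compared per length of exon (FPKM). In dSCI grafts Lyz2 led with a median of 1258 FPKM, followed by Ctss (588), Spp1 (422), Gpnmb (281), Cd68 (276) and Tyrobp (254), while Ptprc (1.91), Siglech (1.60), Ccr2 (1.17), Clec4e (0.733), Arg1 (0.325) and Ly6c2 (0.176) were the lowest. Lyz2 was also first in uninjured (131) and SCI grafts (247), Spp1 in 5 d SCI grafts (1039.9) and Lgals3 in hosts, at 23.0 FPKM in healthy hosts and 192.6 FPKM after SCI. In dSCI grafts each of the first 6 overlapped with the next in order, and Lyz2 may share reads with its near copy Lyz1.

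Genes of other leukocytes were summed by list. The 10 neutrophil genes had a median sum between 2.82 and 16.0 CPM over the 6 tissue groups, 5 to 10 of them with a median below 1 CPM. T cell genes had a median sum of 12.1 CPM in dSCI grafts (2.46 to 38.7) and at most 3.49 CPM in the other groups, and B cell genes of 5.19 CPM and at most 0.758 CPM. MHC class II and dendritic cell genes, which macrophages also express, had a median sum of 586 CPM in dSCI grafts (124 to 2379) and 120 CPM in uninjured grafts (34.1 to 371). Olfml3 was also present in cultures, at a median of 43.7 CPM. Border and tissue macrophage genes (Cd163, Lyve1, F13a1, Pf4 and Cbr2) had median sums between 6.52 and 29.0 CPM in tissue and 5.03 CPM in cultures.

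Promoters were searched for the motif of PU.1, the lineage factor named above, since 41 of 45 members tested were called higher in hosts after SCI. Of the 47 members 36 had 1 or more promoters in RefSeq (GRCm38.p6, 300 bases each, 250 before and 50 after the start). The 8-base PU.1 motif GAGGAAGT, searched on both strands, was found in 4 of the 36 genes (11.1%), against 3.69% of all 27025 genes in that table. This is a description, and an absent match says only that these letters are not in this window. The genes were Ctss, Spp1, Havcr2 and Ly6c2. The first 3, which were expressed in grafts, are printed 5′ to 3′ on the plus strand of their gene with the motif or its reverse complement in capitals. Ctss lies at chr3:95526536-95526835 (plus strand), with the motif in reverse 2 bases before the start, the first promoter of Spp1 at chr5:104434861-104435160 (plus strand), with the motif 113 bases before it, and Havcr2 (TIM-3, an inhibitory receptor) at chr11:46454681-46454980 (plus strand), with the motif 8 bases before it.
Ctss: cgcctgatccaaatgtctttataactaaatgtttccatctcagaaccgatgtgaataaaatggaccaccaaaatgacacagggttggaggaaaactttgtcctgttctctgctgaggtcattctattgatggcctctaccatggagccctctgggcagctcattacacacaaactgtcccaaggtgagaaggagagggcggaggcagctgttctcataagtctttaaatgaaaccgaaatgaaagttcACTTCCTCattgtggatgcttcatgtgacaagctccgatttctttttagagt
Spp1: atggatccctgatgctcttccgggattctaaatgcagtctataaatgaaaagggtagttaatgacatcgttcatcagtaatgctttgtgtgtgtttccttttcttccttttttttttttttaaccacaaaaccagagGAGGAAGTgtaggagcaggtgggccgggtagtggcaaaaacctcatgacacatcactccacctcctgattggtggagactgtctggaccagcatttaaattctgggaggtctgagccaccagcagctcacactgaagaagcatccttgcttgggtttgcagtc
Havcr2: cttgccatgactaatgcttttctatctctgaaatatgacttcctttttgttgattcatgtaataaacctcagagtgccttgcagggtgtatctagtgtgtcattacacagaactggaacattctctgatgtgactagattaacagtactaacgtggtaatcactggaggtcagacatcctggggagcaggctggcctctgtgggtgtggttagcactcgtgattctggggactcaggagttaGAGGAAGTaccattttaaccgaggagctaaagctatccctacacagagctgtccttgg

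These 3 genes did not move alike across groups. Ctss stood at a median of 112 CPM in uninjured, 180.4 CPM in SCI, 798 CPM in dSCI and 191 CPM in 5 d SCI grafts. Spp1 stood at 90.4, 276, 695 and 1714 CPM in the same order, and Havcr2 at 4.51, 14.0, 29.9 and 18.5 CPM. Ctss and Havcr2 were thus highest in dSCI grafts and Spp1 in 5 d SCI grafts, and all 3 were called higher in hosts after SCI (log2FC 4.39, 2.59 and 3.82).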

How the data were processed

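Raw counts per gene were deposited for each library and used as such. Per the labels and methods, the authors trimmed reads with Trimmomatic, aligned them to mm10 with HISAT2 and made the counts with featureCounts. Libraries read as paired from their count headers held an excess of even counts, as where both mates are counted, so 1 fragment can give 2 counts. Entrez identifiers were named from RefSeq, and FPKM were computed from union exon lengths.

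CPM were taken over the total of all gene rows. The 8 comparisons were fitted with edgeR 4.0.16 (R 4.3.3, quasi-likelihood F test, TMM, filterByExpr with a minimum count of 10), with Benjamini-Hochberg adjustment over all genes tested and a call at an adjusted p below 0.01. The SE is the log2FC divided by the square root of F. A gene with 3 counts or fewer in every library of a group was given as a bound. Graft replicates were separate mice. For hosts and cultures, where the source of each replicate was not stated, the p-values measure only the spread between these samples. The script was tested on simulated counts.

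Alternatives were DESeq2 1.42.0, its size factors in edgeR, library totals without TMM, other filters and thresholds, 1 fit of all tissue libraries, thinning, a replicate block and leaving out each library. The members and lists were chosen with earlier results of these data known. Named were 12 genes by library, the members with the largest or smallest log2FC of a comparison or role group and those called against the majority; other members were named after their values were seen. No 2 tissue libraries of a group differed by as little as sampling noise (chi-square over genes). A gene of the further microglia markers is not reported here.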

Additional observations from a re-analysis of the deposited data

Results flagged for a closer look

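In 28 of 78 groups of values (12 genes and the sum over 47, by tissue group), 1 library lay outside Dixon's 95% limit, where chance gives about 1 in 20. These values are given without explanation, and the libraries share cells of 1 preparation across genes, so the genes are not independent.

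In 5 d SCI grafts replicate 4 stood apart for P2ry12 (14.0 CPM), Cx3cr1 (320.0), Siglech (3.38), Arg1 (89.5), Ccr2 (9.51), Ms4a7 (129.0), Clec4d (36.3), Gpnmb (4990.0), Csf1r (451.0), Spi1 (132.0) and the sum (39600.0 CPM, rounded to 3 digits). In hosts after SCI replicate 2 stood apart for Arg1 (2.1 CPM), Ms4a7 (25.6), Gpnmb (893.0), Ptprc (8.48), Csf1r (105.0), Spi1 (25.8) and the sum (4900.0). In SCI grafts at 14 d replicate 5 stood apart for Tmem119 (37.0 CPM), Ptprc (47.3), Csf1r (244.0) and the sum (4770.0), replicate 1 for Arg1 (0.582) and replicate 4 for Ccr2 (3.71). In uninjured grafts replicate 5 stood apart for Arg1 (0.401 CPM) and Clec4d (0.84), and replicate 1 for Ccr2, at 0.0 CPM against 2.01 to 2.38 CPM in the others. In healthy hosts replicate 4 stood apart in the sum (205.0 CPM).

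The injury effect in grafts minus that in hosts passed the edgeR interaction test for 24 members, all on the log2 scale and all negative. Leukocyte surface genes gave −2.84 for Ptprc, −2.21 for Itgam, −3.52 for Itgb2, −5.32 for Itgax, −3.08 for Cd52 and −2.68 for Coro1a. The lineage genes gave −2.91 for Csf1r, −3.5 for Spi1 and −2.64 for Irf8, and the microglia genes −2.58 for Cx3cr1 and −3.33 for Tmem119. Adaptors and Fc receptors gave −4.43 for Trem2, −4.19 for Tyrobp, −2.94 for Fcer1g, −2.62 for Fcgr1 and −3.12 for Fcgr3. The others were −3.98 for Cd68, −3.52 for Cd33, −3.01 for Cd84, −4.99 for Lyz2, −4.98 for Ms4a7, −4.87 for Clec7a, −3.11 for Cybb and −3.8 for Ctss. With only the healthy hosts that lacked Y-linked counts 2 members were called.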

How the results depend on the processing

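The count of members called depended on the test and on single libraries, and the cause was not tested. For dSCI against uninjured grafts it was 16, and 30 with DESeq2, 26 in 1 fit of all tissue libraries, 32 at an adjusted p below 0.05 and 5 to 24 leaving out 1 library. For SCI against uninjured grafts it was 4, and 9 with DESeq2, 8 at 0.05 and 2 to 6 leaving out 1 library. For dSCI against SCI grafts it was 2, and 1 with DESeq2 size factors, 10 with library totals, 16 with DESeq2, 4 without a filter, 1 in the fit of all tissue libraries, 20 at 0.05 and 0 to 22 leaving out 1 library. For 14 d against 5 d, 0 were higher and 2 lower, 1 higher in the fit of all tissue libraries or at 0.05, and 0 to 2 higher and 1 to 2 lower leaving out 1 library. There 3 were lower with DESeq2, with library totals, without a filter, in the fit of all tissue libraries and at 0.05. For SCI grafts against injured hosts 4 were higher and 1 lower, 7 higher with DESeq2, 2 higher and 0 lower in the fit of all tissue libraries, 8 higher at 0.05, and 3 to 10 higher and 1 to 2 lower leaving out 1 library. The difference of injury effects gave 24, and 25 with DESeq2, 33 with library totals, 16 in the fit of all tissue libraries, 32 at 0.05 and 13 to 27 leaving out 1 library. Leaving out the healthy hosts with Y-linked counts, an alternative chosen after seeing the data, gave 17 called in hosts in place of 41 and 2 in place of 24 for the difference. Samples were treated as unpaired, since in no comparison was every same-numbered pair correlated above 0.1. This rule cannot exclude that some were paired. Above 0.1 were 2 of 5 pairs in dSCI against SCI grafts and in injured against healthy hosts, and 0 of 5 in dSCI against uninjured grafts. With the replicate block 1 member was called for dSCI against uninjured grafts, 0 for dSCI against SCI grafts and 1 lower for 14 d against 5 d. Of 606 refits of called genes followed by library, 533 stayed called, 73 did not and 0 changed sign. The median of all genes was shifted by 0.12 in uninjured grafts against NPC and by −0.13 in the difference. Low counts limited Ly6c2, Clec4e and Arg1, which stood at 3 counts or fewer in 2 or more libraries of 4, 6 and 3 of the 6 tissue groups.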
